A study of Mus musculus with 2 samples.

Results

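Far intergenic CTCF sites are the summits of the optimal peak list that lie outside every annotated gene body, 100 kb or more from every start site of a protein-coding or long noncoding RNA gene, and on a base that the genome sequence does not mark as repeat by lower-case letters. Of the 56470 peaks of the optimal list, 56462 lay on placed chromosomes, and 22098 of these had their summit outside all gene bodies. At least 100 kb from every start site were 2492, and the 343 on soft-masked bases were set aside, which left 2149 sites, or 3.81% of placed summits (95% Wilson interval 3.65 to 3.97). Annotation was the basic set of GENCODE M21 on the mm10 assembly (GRCm38), and the start sites were the 5′ ends of its transcripts. Far sites were set beside 13239 near intergenic sites (1 kb to under 100 kb from a start site, same mask rule), 18507 intronic sites and the 343 soft-masked far sites.

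The study profiled CTCF by chromatin immunoprecipitation and sequencing in forebrain of newborn mice (0 days old) of the strain B6NCrl. There was 1 group, for which the labels name no treatment, with 2 libraries called biological replicates 1 and 2. The tissue was powder pooled from several dissections, the sex was not recorded, and both libraries cite the same biosample and donor, so their differences could be technical ones. Without a second condition, comparisons run between classes of sites within these libraries.

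The zinc finger protein CTCF recognises a long DNA motif that is not a palindrome, so each bound motif has a direction. Cohesin, which extrudes chromatin loops, is held back at CTCF, most often where paired motifs face each other. Gene deserts, the long gene-free stretches that hold many of the sites described here, often flank developmental and neuronal genes, and parts of them are known to act on those genes over long distances.

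The sequences under the 10 strongest far sites are shown first, because they are the best-measured cases of what CTCF occupied in far intergenic DNA. Each line gives the protein-coding gene with the nearest start site, the mm10 coordinates and strand, and 44 bases read 5′ to 3′ along the motif. Capitals mark the best match to the 14-base CTCF core motif within 50 bp of the summit, searched on both strands with up to 2 mismatches.

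Caln1, chr5:130853515-130853558, minus strand: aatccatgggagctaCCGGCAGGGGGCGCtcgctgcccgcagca
Ppp6c, chr2:39373300-39373343, minus strand: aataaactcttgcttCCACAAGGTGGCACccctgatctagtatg
Trpc7, chr13:57260088-57260131, minus strand: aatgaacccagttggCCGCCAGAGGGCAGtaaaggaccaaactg
Cdh26, chr2:178629927-178629970, plus strand: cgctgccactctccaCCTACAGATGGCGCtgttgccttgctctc
Ank, chr15:27234926-27234969, minus strand: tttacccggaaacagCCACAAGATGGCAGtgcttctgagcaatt
9630041A04Rik, chr9:101690339-101690382, plus strand: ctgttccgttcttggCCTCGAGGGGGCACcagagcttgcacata
Dsel, chr1:112378872-112378915, minus strand: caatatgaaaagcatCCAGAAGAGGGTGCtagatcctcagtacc
C9orf72, chr4:35373059-35373102, plus strand: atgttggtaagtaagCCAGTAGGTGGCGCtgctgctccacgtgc
Mpdz, chr4:81178859-81178902, plus strand: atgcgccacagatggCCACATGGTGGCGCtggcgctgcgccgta
Bmp7, chr2:172831257-172831300, plus strand: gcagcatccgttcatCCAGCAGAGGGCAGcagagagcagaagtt

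The cores differ between these lines, and only the C9orf72 and Bmp7 sites matched the consensus without a mismatch. The weakest far sites with a full match, chosen after their values were seen, show the other end: these cores fit the consensus fully, with weak peaks.

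Prr32, chrX:45340841-45340884, minus strand: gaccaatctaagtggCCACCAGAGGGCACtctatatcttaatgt
March11, chr15:26185095-26185138, plus strand: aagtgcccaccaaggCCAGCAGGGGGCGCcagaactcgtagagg
Sash1, chr10:9167584-9167627, minus strand: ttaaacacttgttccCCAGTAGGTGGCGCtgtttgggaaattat

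The 3 lines after these share one core, the most used among far sites, which stood at 14 of the 2149 sites. They are shown, again chosen after values were seen, because equal letters carried unequal peaks: the deposited signal was 317 near Tfcp2l1, 101 near Kcnmb2 and 22.4 near Armc1.

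Tfcp2l1, chr1:118759746-118759789, minus strand: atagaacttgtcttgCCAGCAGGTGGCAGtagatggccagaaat
Kcnmb2, chr3:31769359-31769402, plus strand: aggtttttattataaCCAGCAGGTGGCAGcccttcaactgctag
Armc1, chr3:19046116-19046159, plus strand: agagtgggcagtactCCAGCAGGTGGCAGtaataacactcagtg

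Some strong sites held no match with up to 2 mismatches. The strongest of these lay near Tcf21, which encodes a mesodermal transcription factor, and near Mgmt, which encodes a DNA repair enzyme, and had signals of 406 and 387. The best match within 50 bp of the summit had 3 mismatches at both. Their 151-base windows, in lower case throughout because these matches missed the limit of 2, are as follows.

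Tcf21, chr10:23081404-23081554, plus strand: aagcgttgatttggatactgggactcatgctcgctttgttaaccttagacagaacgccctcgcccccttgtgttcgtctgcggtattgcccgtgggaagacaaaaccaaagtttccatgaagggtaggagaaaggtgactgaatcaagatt
Mgmt, chr7:136489067-136489217, plus strand: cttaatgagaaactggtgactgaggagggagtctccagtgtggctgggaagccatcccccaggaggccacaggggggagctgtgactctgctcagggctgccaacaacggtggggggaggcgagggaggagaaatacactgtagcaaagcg

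The last set is a row of sites within one gap on chromosome 2. A gap is the DNA between neighbouring gene bodies of coding or long noncoding RNA genes, and is named here by the nearest protein-coding gene on each side, which need not be where it ends. This one is named by the cadherin genes Cdh26 and Cdh4. It held 21 far sites, more than any other gap, and 13 of them had a core, given here in 30 bases in genomic order with the orientation in the strand.

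Cdh26, chr2:178542237-178542266, plus strand: agccttggCCAGTAGAGGGCGCtcatgatc
Cdh26, chr2:178575028-178575057, plus strand: gtacaccaCCACCAGGTGGCAGcatgcact
Cdh26, chr2:178629934-178629963, plus strand: actctccaCCTACAGATGGCGCtgttgcct
Cdh26, chr2:178665172-178665201, minus strand: ctctgtctCCAGCAGGTGGCGCtgttcaag
Cdh26, chr2:178692399-178692428, plus strand: tattcctgCCAGCAGGCTGCAGtcctgcgc
Cdh26, chr2:178758541-178758570, plus strand: gcagatggCCACTAGAGGGAGCaggttgga
Cdh26, chr2:178885877-178885906, minus strand: gatagagtCCAGCAGGGGGAGCagttgtgc
Cdh4, chr2:178989964-178989993, plus strand: tggaagccCCTGCAGGGGGAGCtctttgca
Cdh4, chr2:179035605-179035634, plus strand: aggtaacaCCAGCAGAAGGCGCagcttgag
Cdh4, chr2:179070542-179070571, plus strand: agaagcagCCACTAGGAGGCACtacagtac
Cdh4, chr2:179094306-179094335, minus strand: ttccccagCCAGCAGGGGAGACtggagaag
Cdh4, chr2:179193981-179194010, minus strand: tggagctgCCACTAGAGGGCAGcattcaga
Cdh4, chr2:179233889-179233918, minus strand: gattgggtCCAGCAGGAGGCGCtgtgctga

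Far intergenic sites were sparse. They numbered 7.12 per Mb of eligible DNA (exact 95% Poisson interval 6.83 to 7.43, over 301.65 Mb of unmasked far intergenic sequence), against 26.7 per Mb for near intergenic sites (26.2 to 27.1, over 496.28 Mb). The ratio of far to near density was 0.267 (0.255 to 0.280). Density fell in steps with distance: it was 37.7 per Mb at 1 to 10 kb from a start site, 30.9 at 10 to 25 kb, 23.9 at 25 to 50 kb and 16.2 at 50 to 100 kb. Beyond the 100 kb boundary the same series went on at 9.92, 6.82, 5.04 and, from 500 kb outwards, 3.45 per Mb, so the boundary marks no break in it. Sites are not replicates, and intervals over sites cover counting error or the spread among sites only.

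**Figure D1:**
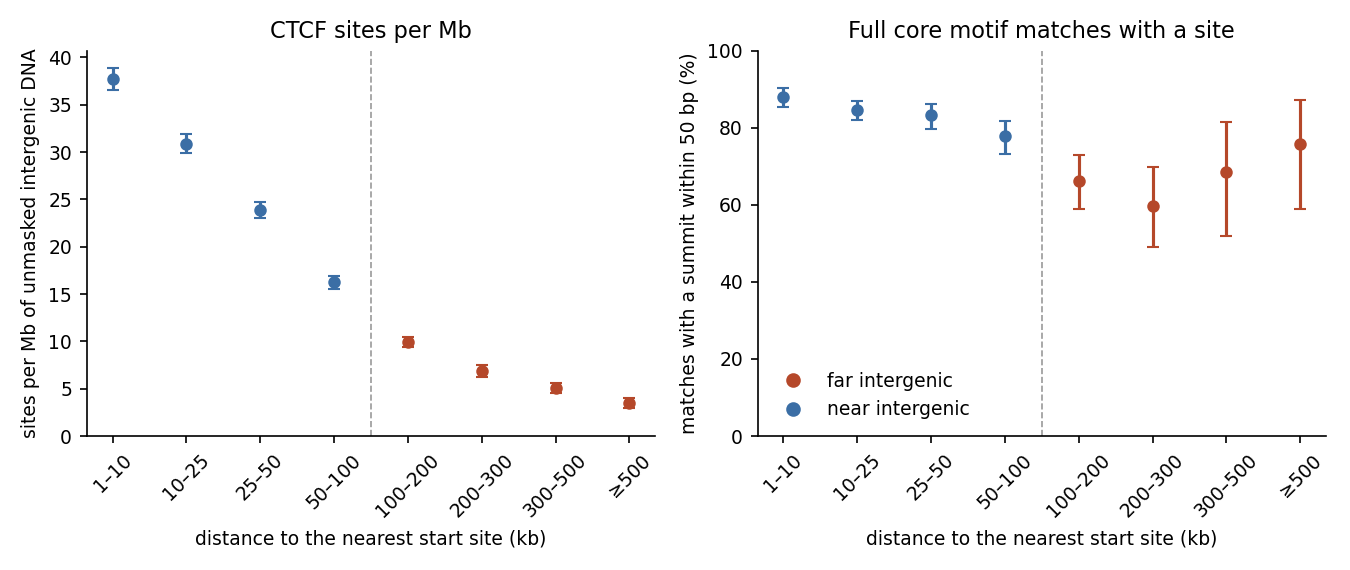
Left, CTCF sites per Mb of unmasked intergenic DNA (y axis) by distance to the nearest start site in kb (x axis), with exact 95% Poisson intervals. Right, the percentage of full core motif matches with an optimal-list summit within 50 bp, with 95% Wilson intervals; red points are far and blue points near intergenic DNA, and density drops at every step while the motif share is lowest at 200 to 300 kb (59.8%).

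Far DNA held fewer core motifs per Mb, and fewer of those motifs were occupied. Full matches to the core motif, counted on both strands with 1 entry per start, numbered 325 in far intergenic DNA (1.08 per Mb) and 2279 in near intergenic DNA (4.59 per Mb). Of these matches, 214 in far DNA carried an optimal-list summit within 50 bp, or 65.8% (60.5 to 70.8), against 1921 in near DNA, or 84.3% (82.7 to 85.7). The difference was −18.4 percentage points (Newcombe 95% interval −24.0 to −13.3). Full matches in far DNA were thus listed as sites less often than full matches nearer to start sites. The share did not keep falling with distance. It was 77.7% at 50 to 100 kb, then 66.3%, 59.8% and 68.6% in the next classes. From 500 kb it was 75.8% (59.0 to 87.2) of 33 matches. Matches with 1 mismatch were occupied at 20.7% in far and 37.3% in near DNA, and matches with 2 mismatches at 2.19% and 4.70%.

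The occupied share was lower in far than in near DNA in each of 4 classes of GC content and in cores with and without a CpG. In far DNA the occupied share of full matches was 71.9%, 63.9%, 63.0% and 67.2% in windows of under 40%, 40 to 45%, 45 to 50% and at least 50% GC. In near DNA the same classes stood at 88.2%, 82.4%, 80.4% and 86.8%, each above its far counterpart. Cores with a CpG, a site where cytosine methylation can fall within the motif, were occupied at 69.3% (59.0 to 78.0) of 88 matches in far DNA and 89.7% (87.3 to 91.7) of 738 in near DNA. Cores without one stood at 64.6% of 237 far matches and 81.7% of 1541 near matches. How well reads can be placed at these matches was not tested.

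Where a site was listed, its peak was weaker far from start sites than in near intergenic DNA. The deposited peak signal, whose scale is not given in the sources used here, had a median of 65.5 at far sites (quartiles 33.4 and 153), against 108 at near sites (41.7 and 226). Both libraries gave the same order: the medians were 34.6 at far and 57.7 at near sites in replicate 1, and 30.7 and 50.7 in replicate 2. The mean difference on the log2 scale, far minus near, was −0.44 (95% interval −0.50 to −0.38), with −0.46 in replicate 1 and −0.44 in replicate 2. Among peaks at or above the list's median signal, a cut on the compared value itself, it was −0.23 (−0.28 to −0.18). Intronic sites, median 74.4, stood closer, at a difference of −0.14 (−0.20 to −0.08). Far sites on soft-masked bases were weaker still, at a median of 35.1, so that unmasked far sites exceeded them by 0.75 (0.62 to 0.87). Within 4 classes of GC content the far minus near difference ran between −0.32, under 40% GC, and −0.48, at 45 to 50%.

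Median strength changed little with distance once beyond 100 kb. The median signal was 117, 119, 102 and 89.9 in the 4 near distance classes, low to high, and 67.0, 68.7, 62.4 and 62.2 in the 4 far ones. Quartile ranges overlapped widely in every class, though over the far classes the upper quartile fell from 164 to 158, 132 and 125. Among far sites, Spearman's rho between distance and signal was −0.0287 over the 2149 sites, given as a description. Far sites were scarce at the top of the list: 17 of the 2149 stood among its 1000 strongest peaks, while far sites made up 3.81% of placed summits. Of the 13239 near sites, 381 stood there, and the larger size of that class is part of the contrast in counts. A signal of 100 or more was reached by 803 far sites (37.4%), against 52.2% of near sites.

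**Figure D2:**
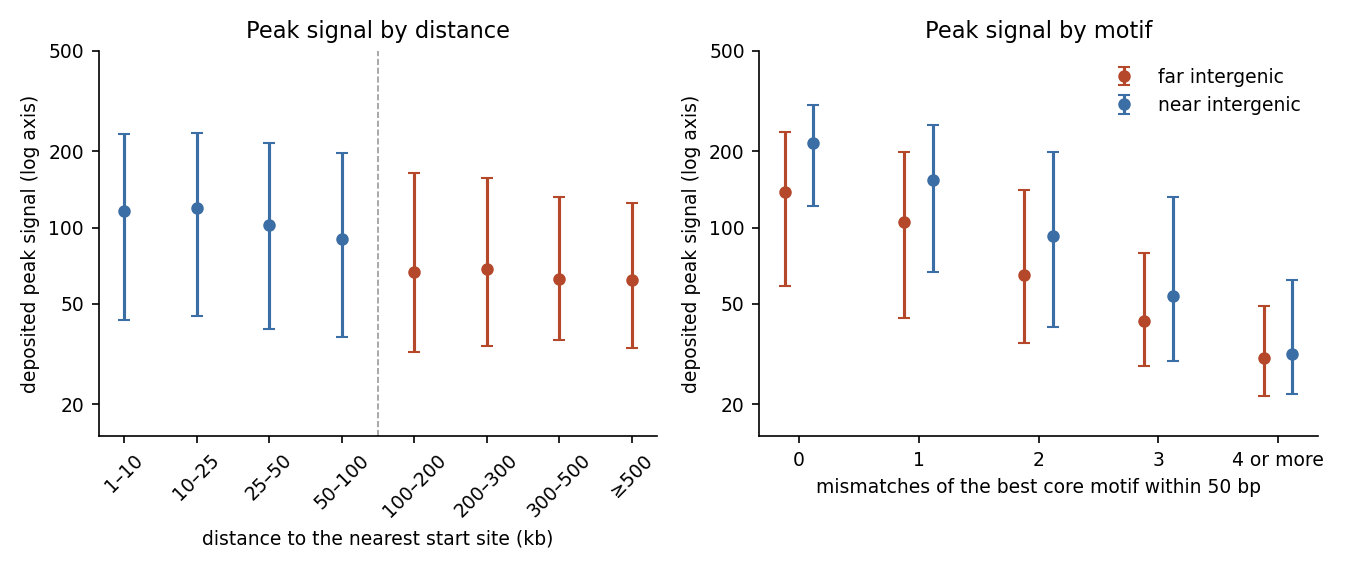
Left, deposited peak signal (log axis) by distance to the nearest start site in kb; right, by the number of mismatches in the best core motif within 50 bp of the summit, with far intergenic sites left of near intergenic sites. Points are medians and bars run from the lower to the upper quartile; at 0 mismatches the medians are 139 at far and 216 at near sites.

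The sequence under far sites was the usual CTCF motif. A core with at most 2 mismatches lay within 50 bp of the summit at 1542 far sites, or 71.8% (69.8 to 73.6), against 74.5% of near and 69.6% of intronic sites. The difference from near sites was −2.75 percentage points (−4.83 to −0.74) and that from intronic sites 2.11 (0.06 to 4.09). Soft-masked far sites had a core more often, at 77.6%, a difference of −5.80 points (−10.3 to −0.73). The call against near sites was lost among peaks at or above the list's median signal, at −0.12 points (−2.49 to 2.03), and with far starting at 200 kb, at −2.63 (−5.70 to 0.26). In 5 equal classes of the list's signal, weak to strong, the motif share was 50.9%, 58.6%, 72.8%, 85.9% and 89.5% at far sites and 45.1%, 58.6%, 73.2%, 82.0% and 90.3% at near sites. In windows of the same length 1000 bp to either side of the summits the share was 1.79% at far and 3.01% at near sites. The middle of the core was placed at a median distance of 6.5 bp to the summit.

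Full matches were scarcer than at near sites, and at equal match the peak was weaker than there. A core without mismatch stood at 215 of the 2149 far sites, against 14.5% of near sites, a difference of −4.45 points (−5.80 to −2.99). At 0, 1 and 2 mismatches the median signal at far sites was 139, 106 and 65.0, and at near sites it was 216, 154 and 92.3. The mean log2 difference, far minus near, was −0.61 (−0.78 to −0.45) at full matches, −0.42 (−0.53 to −0.32) at 1 mismatch and −0.32 (−0.42 to −0.22) at 2. Sites without a core differed by −0.27 (−0.37 to −0.17). Against intronic sites the difference was −0.54 (−0.71 to −0.37) at full matches and −0.22 (−0.32 to −0.12) at 1 mismatch. It was −0.04 (−0.14 to 0.06) at 2 mismatches and −0.03 (−0.12 to 0.06) without a core, with intervals that span 0. The 3 weakest full matches printed above, near Prr32, March11 and Sash1, had signals of 15.3, 17.7 and 22.2.

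Cores at far sites also held fewer CpG dinucleotides. A CpG stood in 393 of the 1542 far cores, or 25.5% (23.4 to 27.7), against 35.8% of the near cores, a difference of −10.3 points (−12.6 to −7.87). Among all full matches, occupied or not, a CpG stood in 88 of 325 in far DNA and 738 of 2279 in near DNA. What part of the difference at sites comes from the DNA itself was not tested. Far sites with a CpG core had a median signal of 133, against 78.6 for those without. The same order held at near sites, with 178 and 126. GC content within 100 bp of the summit averaged 44.7 ± 6.72% at far sites and 49.0 ± 7.08% at near sites (SD over sites), a difference of −4.29 points (−4.60 to −3.98). Letter use varied within the core as well, since the 1542 far cores comprised 1008 distinct 14-base sequences, and the most used one, printed above for 3 sites, stood at 14 of them.

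Base preference along the motif had a similar shape in both classes. Only sites whose core had at most 2 mismatches entered, so likeness within the core was largely set by that choice. Summed over the 14 core positions, information was 15.5 bits at far sites and 15.9 bits at near sites. Outside the core, counting positions from 1 at its first base, the highest upstream value lay at position −11, with 0.165 bits at far and 0.204 bits at near sites. CTCF is known to contact bases upstream of the core with further zinc fingers at a subset of its sites. The highest downstream value lay next to the core, at position 15, with 0.282 bits at far and 0.251 bits at near sites. Background information far from the core averaged 0.0141 bits at far and 0.00314 bits at near sites. Information was taken relative to equal use of all bases, so uneven base composition alone raises it. Composition was not separated from base preference in these values.

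**Figure D3:**
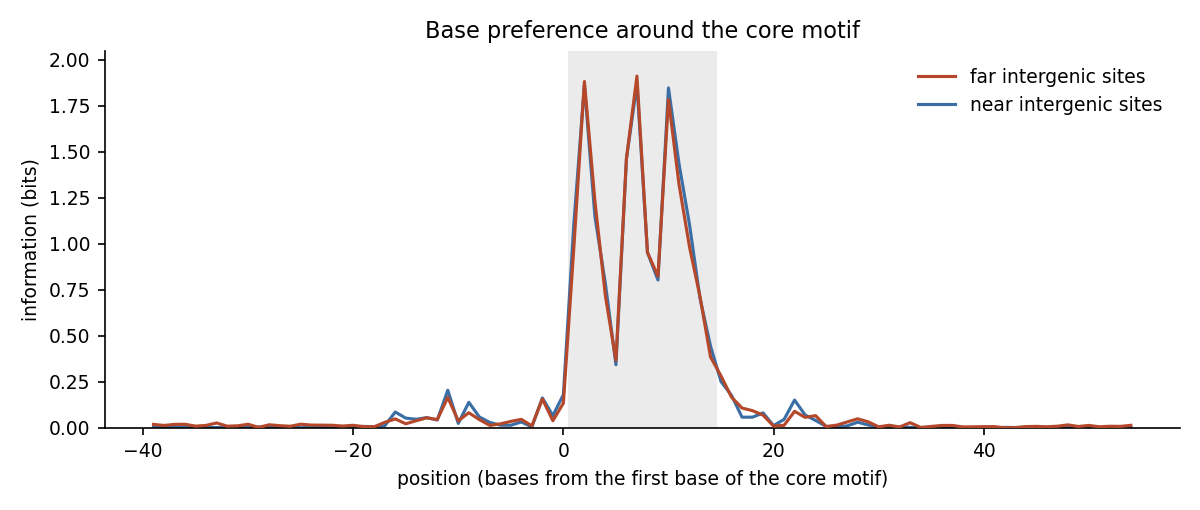
Information in bits (y axis) at each base around the core motif (x axis, positions from the first base of the core; grey band, the 14 core bases), for far intergenic sites (red, 1542 cores) and near intergenic sites (blue, 9864 cores). All cores had at most 2 mismatches, which largely sets how closely the curves overlie within the core. Both curves have a small upstream rise at position −11.

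Far sites stood apart from other sites. The nearest other summit of the optimal list was a median of 34.0 kb away, against 7.09 kb at near sites. Another summit lay within 10 kb at 28.1% of far and 58.8% of near sites, and none lay within 100 kb at 24.3% and 2.75%. The most isolated far site was 1259 kb from the next summit. At the short end, 31 far sites had another summit within 500 bp, and the 3 weakest far sites of all, with signals of 5.41, 5.50 and 5.72, each lay about 0.2 kb from another summit.

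Neighbouring motifs at far sites pointed the same way more often. Of 1116 pairs of neighbouring sites that both had a core and began with a far site, 702 were in tandem, or 62.9% (60.0 to 65.7), against 54.1% (52.9 to 55.3) of 6952 pairs that began with a near site. The difference was 8.79 percentage points (5.69 to 11.8). Convergent pairs, whose motifs face each other, made up 18.9% at far and 21.0% at near sites, and divergent pairs 18.2% and 24.9%. Convergent far pairs were the widest, with a median of 116 kb between summits, tandem ones had 79.2 kb and divergent ones 31.9 kb. Near pairs had the same order, at 23.9, 16.2 and 13.4 kb.

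The tandem difference was also taken by spacing. For pairs 50 to 200 kb apart, 70.2% of 383 far pairs and 51.9% of 1265 near pairs were in tandem, a difference of 18.4 points (12.9 to 23.5). At 200 kb or more the shares were 61.3% and 52.5%, a difference of 8.86 points (0.58 to 16.9). Closer pairs gave 5.76 points (−1.45 to 12.5) under 10 kb and 1.21 points (−5.07 to 7.35) at 10 to 50 kb, both with intervals that span 0. Whether the spacing classes differed from each other was not tested. Leaving out the gaps with 5 or more far sites gave 8.11 points (4.33 to 11.8). Successive pairs share a site, and the intervals treat pairs as independent.

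Read against the nearest protein-coding start site, the core's 3′ end lay on the gene's side at 651 of the 1542 far motif sites, or 42.2% (39.8 to 44.7). The corresponding share was 46.0% of the near motif sites, and the difference −3.77 points (−6.40 to −1.10). By genome strand the far cores were even, with 795 on the plus strand (51.6%, 49.1 to 54.0).

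Both libraries measured nearly all far sites. Of the 2149, all had an overlapping peak in the list of replicate 1 and 2146 in that of replicate 2. The lists of single replicates hold 300000 peaks each and are not thresholded, so overlap alone is a weak criterion. A replicate summit lay within 100 bp at 2130 sites in replicate 1 and 2129 in replicate 2. Across far sites the signals of the 2 libraries had a Spearman correlation of 0.940, given as a description over sites that share both libraries. After centring on the median ratio of the whole list, the log2 ratio of replicate 1 to replicate 2 had an SD of 0.48 at far sites, against 0.44 at near sites. It lay beyond 1 in either direction at 107 far sites (4.99%) and at 4.33% of near sites.

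**Figure D4:**
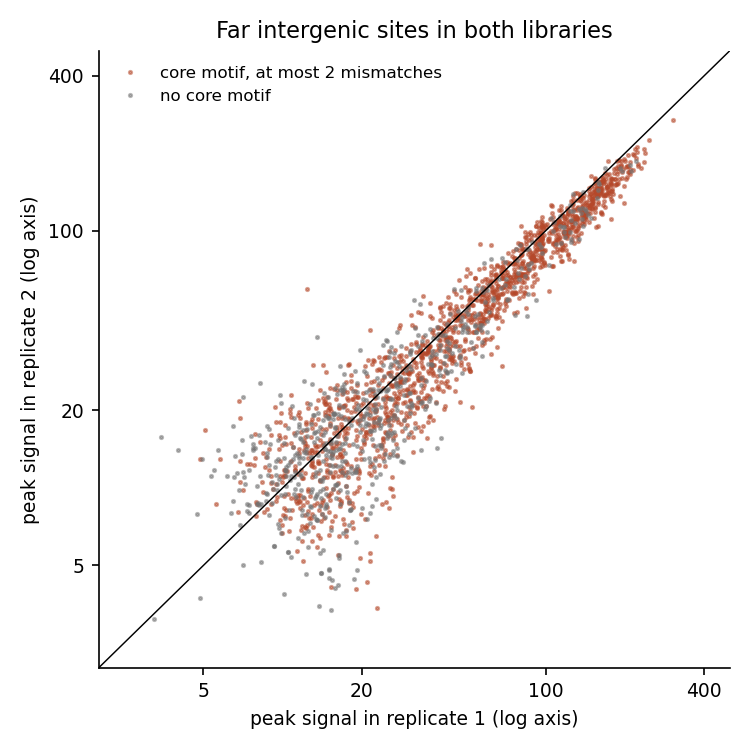
Deposited peak signal in replicate 2 (y axis) against replicate 1 (x axis), both on log axes, for the 2146 far intergenic sites found in both lists; red points have a core motif, grey points none, and the line marks equal values. Points close on the line towards strong peaks, and sites without a motif gather at the weak end.

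The strongest far site lay 281 kb from any start site, with Caln1, a gene for a neuronal calcium-binding protein, nearest among protein-coding genes at 405 kb. It stood in a gap of only 24.7 kb, so gene bodies lay much closer than start sites. The deposited signal of this site was 574, rank 22 in the whole list, with 303 in replicate 1 and 270 in replicate 2. It was the only far site above 500. Next came the sites near Ppp6c, the catalytic subunit of protein phosphatase 6, with 470 (246 and 226 in the replicates), and near Trpc7, a cation channel gene, with 442 (237 and 207).

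The site near Cdh26 had a signal of 435 (238 in replicate 1 and 200.24 in replicate 2). Ank, a pyrophosphate transport gene, had one of 430 nearby (221 and 212). That near Bmp7, which encodes a secreted bone morphogenetic protein, had 412 (214 and 198) and lay 109 kb from the Bmp7 start site, 0.7 kb from another summit. The remaining 4 of the 10, near 9630041A04Rik, Dsel, C9orf72 and Mpdz, had signals of 427, 421, 419 and 414. In each of the 10 the centred log2 ratio of the replicates lay between −0.14 and 0.14, a narrower range than among far sites at large.

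Distance from the nearest start site reached 1595 kb. The farthest pair lay in a gap of 3477 kb on chromosome 3 whose nearest coding genes are D3Ertd751e and Pcdh10, a protocadherin gene for neuronal cell adhesion. Their summits were 1.21 kb apart, with signals of 188 (96.4 and 93.1 in the replicates) and 50.8 (29.3 and 19.6), and both cores lay on the plus strand. Another site in that gap was 1454 kb from any start site and had a signal of 59.8 (32.3 and 27.4). Beside Pcdh7, a further protocadherin gene, a site 1510 kb out had a signal of 109 (52.8 and 54.0) with 29.9% GC. The fifth, near Lrfn5, which encodes a synaptic adhesion protein, lay 1245 kb out with a signal of 60.2 (30.8 and 29.0). Its best match had 3 mismatches, so no core was called. Of all far sites, 183 were at least 500 kb from every start site and 10 at least 1000 kb, while the median distance was 179 kb. Gene bodies could lie closer: 70 far sites (3.26%) were within 10 kb of the body of a coding or long noncoding RNA gene.

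Cores of the 4 farthest sites with a motif are printed for comparison with those of the strongest sites, again with capitals for the core.

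Pcdh10, chr3:43783144-43783187, plus strand: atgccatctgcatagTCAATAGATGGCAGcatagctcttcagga
Pcdh10, chr3:43784348-43784391, plus strand: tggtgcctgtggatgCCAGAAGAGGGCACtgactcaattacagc
Pcdh7, chr5:56208046-56208089, plus strand: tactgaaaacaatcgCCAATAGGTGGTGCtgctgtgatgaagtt
D3Ertd751e, chr3:43200051-43200094, plus strand: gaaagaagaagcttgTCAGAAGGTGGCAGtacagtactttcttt

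All 4 cores lay on the plus strand and each had 1 or 2 mismatches.

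The 2149 sites fell into 911 gaps, as defined above. A single far site stood in 407 gaps, 395 gaps held 2 to 4, and 109 gaps held 5 or more, with 713 sites or 33.2% of the total. Away from chromosome ends, longer gaps held a far site more often, but the rule itself favours this. It removes all DNA within 100 kb of a start site, so short gaps can hold little eligible DNA. Far sites per eligible Mb of each gap were not computed. One or more far sites stood in 180 of 578 gaps of 200 to 300 kb, 242 of 349 of 500 to 1000 kb and 20 of 21 from 2000 kb. Length alone did not fix the number: of 148 such gaps of at least 1000 kb, 18 held no far site. The longest of these, 2359 kb long and named by 4931417E11Rik and Gm9008 on chromosome 6, held 3 optimal-list summits, none of which met the rule. Only 4 far sites lay in the 26 gaps at chromosome ends.

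**Figure D5:**
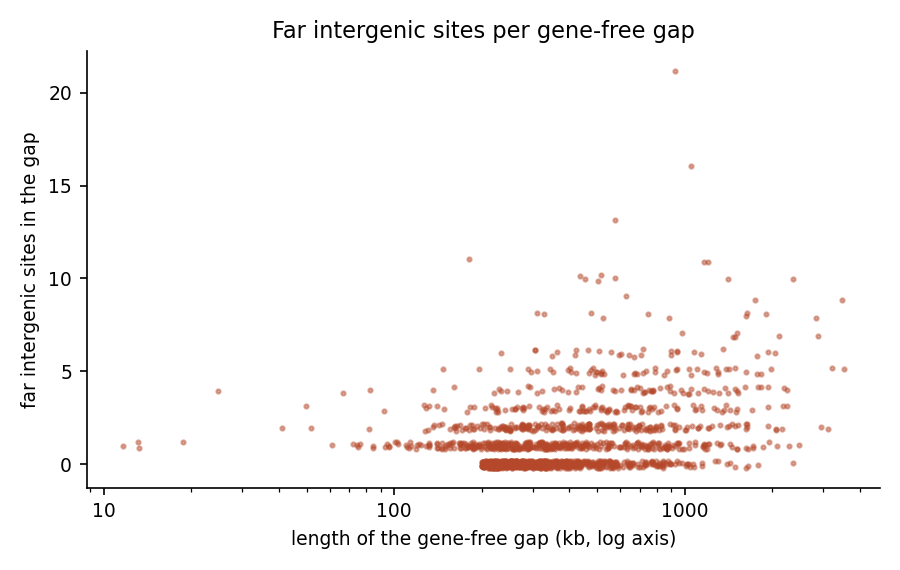
Far intergenic sites per gap free of coding and long noncoding RNA genes (y axis, with a small vertical jitter) against gap length in kb (x axis, log axis), 1 point per gap away from chromosome ends. Gaps without a far site are drawn only from 200 kb, and the highest point is the gap named by Cdh26 and Cdh4 with 21 sites.

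The Cdh26 and Cdh4 gap, 928 kb long, had 21 far sites among 26 optimal-list summits. Signals ran between 21.5 and 435 with a median of 44.1, and 8 of the 13 cores were on the plus strand. The gap named by Dhx35, which encodes an RNA helicase, and Gm826 held 16 far sites, with a median of 42.1 and a highest signal of 392. That named by Kcng1, a potassium channel subunit gene, and Nfatc2, a transcription factor gene, was only 181 kb long and held 11, with a higher median of 74.6. In the gap named by Epha7, an ephrin receptor gene of axon guidance, and Map3k7, which encodes a signalling kinase, 11 far sites had a median of 39.5, and 5 had a core.

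All 5 of the most crowded gaps held annotated genes of other types, between 2 and 5 in the 4 gaps above and 55 in the fifth. The fifth, named by Olfr1507 and Dad1 on chromosome 14, held 13 far sites with signals between 18.0 and 286, and 9 of its 11 cores lay on the plus strand. Of its 55 other genes 52 were antigen receptor gene segments, which are typed neither as protein-coding nor as long noncoding RNA genes; the T cell receptor alpha locus is known to lie beside Dad1. In all, 26 far sites lay within 100 kb of the start of an antigen receptor segment not typed as a pseudogene, with a median signal of 37.1, against 66.4 for the other 2123. Start sites of some other gene type, mostly pseudogenes, lay within 100 kb of 1430 far sites (66.5%), with pseudogenes near 1034 and small RNA genes near 566.

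The genes next to far sites were counted by lists chosen for forebrain. The far sites had 946 distinct nearest protein-coding genes, and 97 of these were nearest to 5 or more far sites. Cadherin and other adhesion genes were nearest to 103 far sites (4.79%), through 37 of the 63 genes, against 0.589% of near sites. That list did not include Cdh26, a cadherin gene nearest to 12 far sites. Neuronal ion channels and receptors were nearest to 41 (1.91%), against 0.340% of near sites, axon guidance genes to 30 (1.40%, against 0.438%) and forebrain transcription factors to 34 (1.58%, against 1.07%). Genes for secreted signals were nearest to 25 (1.16%, against 0.582%). None of the 30 housekeeping genes was nearest to a far site, and no eligible far DNA had one as its nearest gene.

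Per Mb of far DNA, the lists stood in another order than by share of sites. Adhesion genes were the nearest genes of 29.6 Mb of eligible far DNA and had 3.48 far sites per Mb there (exact 95% interval 2.84 to 4.22), below the 7.12 of far DNA as a whole. Axon guidance genes had 3.63 per Mb (2.45 to 5.18), forebrain transcription factors 5.03 (3.48 to 7.03) and neuronal channels 5.45 (3.91 to 7.39). Genes for secreted signals, with 2.22 Mb, had the highest density of the lists, 11.2 per Mb (7.27 to 16.6). In near DNA the same 5 lists ranged from 8.50 per Mb for adhesion genes to 24.7 per Mb for secreted signals, so these lists kept the same lowest and highest member.

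Single genes of the lists gave detail. Sall1, a zinc finger transcription factor gene, was nearest to 5 far sites with signals between 17.9 and 265. Cdh4 had 9 with a median signal of 38.2, and Pcdh20, a protocadherin gene, 7 with a median of 110. The guidance receptor genes Epha7 and Robo2 had 6 and 4, with medians of 51.9 and 161. Bmp7 and Bmp2, both for bone morphogenetic proteins, had 6 and 4, with medians of 164 and 110. Of the potassium channel genes, Kcna4 had 9 with a median of 73.1 and Kcnj3 had 7 with a median of 124. A nearest gene is a position on the chromosome and not a measured target.

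Chromosomes differed in far site density. It ran between 4.67 per Mb on chromosome 17 and 10.6 per Mb on chromosome 2, among autosomes. The X chromosome held 97 far sites, or 4.09 per Mb, against 7.41 per Mb on the autosomes, a ratio of 0.552 (0.446 to 0.677). Near sites showed the same direction, with 12.8 and 27.6 per Mb, a ratio of 0.463 (0.417 to 0.513). The animals' sex was not recorded, so the number of X copies is not known and its part in the difference was not tested. No far site lay on the Y chromosome in 1.15 Mb of eligible DNA, which allows up to 3.20 per Mb.

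The largest replicate differences fell on weak sites. The most extreme in favour of replicate 1 lay near Zc3h15, where replicate 1 gave a signal of 22.9 and replicate 2 one of 3.42, or 2.55 as a centred log2 ratio. The other 4 in that direction, near Epha4, Arrdc4, B230118H07Rik and Dhx35, had ratios between 1.88 and 2.09. In favour of replicate 2, the site near Stim2, a calcium sensor gene, gave a signal of 12.4 in replicate 1 but 59.4 in replicate 2, a ratio of −2.46. Those near Emcn, Apob, Armc1 and Gli2 had ratios between −2.39 and −1.88. Apart from the Stim2 site, with a deposited signal of 72.3, the other 9 had signals between 17.8 and 30.7.

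At the 100 kb boundary, the 3 sites just inside had Irx4, Mib1 and Impg2 as their nearest coding genes and lay 100.06, 100.08 and 100.1 kb from the nearest start site of either gene type, with signals of 320, 141 and 26.7. The 3 just outside had Mid1ip1, Fam204a and Irx4 and lay 99.9, 99.8 and 99.8 kb from it, with signals of 71.9, 290 and 48.7. The Irx4 entries are 2 summits of the same peak interval, 0.232 kb apart, of which the stronger fell inside the rule. Irx4 encodes a homeobox transcription factor.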

How the data were processed

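CTCF ChIP-seq peak lists of 2 libraries (1 group, age 0 days) were used as the authors deposited them, on mm10, per the labels. The sources used here name no aligner, peak caller or read depth, so no interval based on depth can be given, and the library named as a possible control was not used. Each deposited list gave a signal value per peak in the scale of the authors' caller, used to rank and describe peaks. Not used were the −log10 q-value of the deposited lists and the score that the authors' optimal and conservative lists carry. Both of these lists are labelled as thresholded on the irreproducible discovery rate. How the replicates entered that step was not examined. Summits were placed with the deposited summit offset.

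The far rule, the comparison classes and the gene lists were chosen with earlier results of these data known. A replicate's value at a site was that of its overlapping peak with the nearest summit. Soft masking was read from the RefSeq GRCm38 sequence; the program behind that mask is not stated and may differ from that of other mm10 copies. The CTCF core motif was scanned around summits (50 bp) and across all eligible DNA. GC content was taken within 100 bp of a summit. Named were the 10 strongest and 5 farthest sites, the 5 gaps with most sites, the 5 largest replicate ratios each way, 3 sites on each side of 100 kb, and per list the 2 genes with most sites, of which 1 is not reported here. Sites without a motif, the weakest sites and repeated cores were chosen after their values were seen.

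Intervals are Wilson for shares, Newcombe for differences of shares, exact Poisson for densities and normal for mean log2 differences; a difference was read as present where its 95% interval left out 0 (1 for ratios). No test between conditions was possible. As alternatives the conservative list, optimal-list peaks at or above its median signal, and as many of the strongest peaks of each single replicate were used, with other distances, masks, gene models and motif settings. The motif occupancy, tandem pair and GC class comparisons were added after seeing the data. Software was samtools 1.23.1, pysam 0.24.0, pandas 2.3.3, numpy 2.4.6, scipy 1.17.1 and matplotlib 3.10.9 under Python 3.11.15. Planted in 3000 simulated windows, 100% of motifs were found by the scan, and 1.63% of random windows gave a match.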

Additional observations from a re-analysis of the deposited data

Results flagged for a closer look

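The conservative list, used above only as an alternative, held 2098 far intergenic sites under the same rule, and 194 of them lay more than 100 bp from any optimal-list summit. Their median signal was 21.5. They were singled out because their summits are not in the list that the main comparisons use. Whether an optimal-list peak covers them, and why the lists differ there, was not tested.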

How the results depend on the processing

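The share of far sites among placed summits was set by the rule: it was 7.64% with far starting at 50 kb, 1.64% at 200 kb, 4.41% with soft-masked summits kept and 8.23% with protein-coding gene models only. The ratio of median spacing, far to near, was 4.80 and became 3.28 at 50 kb, 7.35 at 200 kb and 3.64 with protein-coding models only. The motif share difference of −2.75 points became −0.12 among peaks at or above the list's median signal and −2.63 at 200 kb, with intervals that span 0 in both, and −4.96 (−7.09 to −2.95) within GC classes; it was −5.75 with protein-coding models only, −5.31 with at most 1 mismatch and −1.81 with at most 3. The convergent share of 18.9% became 21.8% among peaks at or above that median. The tandem difference had intervals spanning 0 for pairs under 10 kb apart (5.76 points) and at 10 to 50 kb (1.21 points). The causes were not tested. The density ratio, the log2 strength differences, the GC difference and the occupied share of motif matches kept their direction, with intervals off the null value, in every alternative run for them; the strength difference within GC classes was −0.41 (−0.47 to −0.35). Both strength differences were smaller among peaks at or above the median, at −0.23 over all sites and over motif sites, against −0.44 and −0.46. That alternative cuts on the signal itself, which tends to narrow a difference in signal whatever the sites. Leaving out either replicate changed no call among the 10 results recomputed that way; the CpG share, the full-match share, the orientation to genes, the X chromosome ratio and the gene list densities were not recomputed. No paired analysis was possible because there was 1 group.

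Peak lists carry no read depth, so a missing site cannot be told from one under the threshold. Mappability and the control library were not examined, and the 2 libraries share a biosample.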
